A study of Mus musculus with 7 samples.

Results

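Genes of the classical, lectin and terminal complement pathways and of blood coagulation were compared in the liver between C3ar1-/- mice and wild-type mice. The members were taken as a fixed list of 42 gene symbols, 21 of complement and 21 of coagulation and fibrinolysis, and were found by exact match to the symbols of the array's probe annotation. In all, 37 of the 42 were measured, 18 of complement and 19 of coagulation, among 16468 gene symbols on the array. They were read by 38 probes, since Itgam had 2 and every other measured member had 1. C1ra, C1s, Cfp, Fga and Cpb2 had no probe under those symbols. C1s is described under its newer symbol, outside the counts of members, and the other 4 were not analysed here.

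Each of the 7 arrays carried 2 colours and compared the liver RNA of 1 mouse fed chow with a common pool prepared from the livers of 6 wild-type animals. The mice were 3 carrying the C3ar1-/- genotype, numbered 2 to 4 in the labels, and 4 wild-type littermates, numbered 1 to 4. Strain, sex, age and the deleted part of C3ar1 are not given in the sources used here. C3ar1 encodes the receptor for C3a, the small fragment released when complement component C3 is cut. All values are log ratios of mouse against pool. Folds take the logarithm as base 10, and positive values are most likely mouse above pool, because the titles put the mouse second, in the place of the Cy5 channel, but neither is stated in the sources used here. A turned direction would turn every sign in the text. Ratios to a liver pool carry no level, so one member cannot be set above another in abundance and signal over background is unknown. In whole liver, fewer cells of a type and less RNA per cell cannot be told apart.

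Most soluble complement proteins and clotting factors are made by hepatocytes and secreted into plasma. In the classical pathway C1r and C1s cut C4 and C2, and in the lectin pathway the mannose-binding lectins recognise microbial sugars and the MASP proteases do the cutting. Both routes lead to the cleavage of C3 and, at the end, to the membrane attack complex built from C5b, C6, C7, C8 and C9. Coagulation runs through the contact factors, tissue factor and the vitamin K-dependent proteases to thrombin, which turns fibrinogen into fibrin, and plasmin dissolves the clot. Several of these genes, fibrinogen above all, are acute phase genes of the liver, induced by interleukin-6.

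The array of knockout liver 2 was the most spread out (SD of 0.0975 over probes, where the others had 0.0466 to 0.0676). The single C3ar1 probe did not separate the genotypes, with 0.00420, 0.0337 and 0.0514 in knockout livers 2, 3 and 4 and -0.0296, -0.0318, 0.0225 and 0.0264 in wild-type livers 1 to 4 (limma, adjusted p = 0.872), and it may lie outside the deleted part, so it checks neither the labels nor the direction. Over all 16468 genes 1 passed an adjusted p of 0.05, A2ml1, which is no member. The hepatocyte markers, of which 12 of 14 were measured, had list means of -0.0464, 0.0691, -0.0375 and 0.0265 in wild-type livers 1 to 4 and 0.0152, 0.0696 and 0.0322 in knockout livers 2 to 4, so the ranges of the genotypes overlapped. None of the measured members lies on chromosome 6, where C3ar1 and A2ml1 lie (0 of 37 in the GRCm38.p6 annotation).

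Both measured fibrinogen chain genes and 3 late complement components, 5 members in all, were at their lowest in one and the same liver and at their highest in another, and their promoters are shown for that reason. RefSeq promoter windows in the GRCm38.p6 build were found for 29 of the 37 measured members, and the 250 bases before the annotated start are printed. Capitals mark matches, on either strand, to TTCNNNGAA (bound by STAT factors, which carry the interleukin-6 signal), CTGGGAA (the core of the interleukin-6 response element of fibrinogen genes), TTGCNNAA (a C/EBP element) and GTTAAT (the core of the element bound by HNF1, a liver factor). No 2 marked matches overlap.
Fgb, chr3:83049864-83050113, minus strand: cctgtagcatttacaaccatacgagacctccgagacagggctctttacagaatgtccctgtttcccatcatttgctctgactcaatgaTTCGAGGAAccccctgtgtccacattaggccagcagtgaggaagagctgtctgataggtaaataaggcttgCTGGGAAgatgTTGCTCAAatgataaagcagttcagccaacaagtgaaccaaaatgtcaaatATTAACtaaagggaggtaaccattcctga
Fgg, chr3:83007474-83007723, plus strand: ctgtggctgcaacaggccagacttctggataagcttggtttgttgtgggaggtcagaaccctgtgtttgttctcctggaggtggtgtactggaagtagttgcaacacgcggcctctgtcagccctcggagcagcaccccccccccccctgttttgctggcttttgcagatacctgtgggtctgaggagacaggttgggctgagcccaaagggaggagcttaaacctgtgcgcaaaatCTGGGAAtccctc
C8a, chr4:104876399-104876648, minus strand: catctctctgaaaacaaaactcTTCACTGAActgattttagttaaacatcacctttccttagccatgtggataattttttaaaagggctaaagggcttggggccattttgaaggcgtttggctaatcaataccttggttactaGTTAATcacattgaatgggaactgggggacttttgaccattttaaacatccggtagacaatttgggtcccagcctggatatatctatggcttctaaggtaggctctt
C8b, chr4:104766067-104766316, plus strand: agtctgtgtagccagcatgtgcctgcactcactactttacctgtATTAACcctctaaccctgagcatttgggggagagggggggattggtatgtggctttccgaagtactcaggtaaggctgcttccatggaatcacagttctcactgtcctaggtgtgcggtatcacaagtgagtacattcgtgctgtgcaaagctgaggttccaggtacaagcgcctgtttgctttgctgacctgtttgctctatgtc
C9, chr15:6445096-6445345, plus strand: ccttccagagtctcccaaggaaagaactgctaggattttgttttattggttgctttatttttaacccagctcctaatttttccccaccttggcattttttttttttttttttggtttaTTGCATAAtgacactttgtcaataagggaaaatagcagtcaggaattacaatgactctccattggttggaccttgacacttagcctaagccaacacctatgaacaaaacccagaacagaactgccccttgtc

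Fgb held all 4 motifs and was the only one of the 29 members to do so, while 0.0122% of the 32851 promoters of the table held all 4. Since CTGGGAA was searched as a known element of fibrinogen genes, its match in Fgb is no independent finding. Fgb was also picked after its values were seen, so the share does not measure how unusual it is. CTGGGAA stood in Fgg too, 13 to 7 bases before its start, and in Fgb it stood 91 to 85 bases before the start, just ahead of the C/EBP match. C8a held the STAT and the HNF1 letters, C8b the HNF1 letters alone and C9 the C/EBP letters alone. Of all promoters 7.02% held TTCNNNGAA, 9.10% CTGGGAA, 9.56% TTGCNNAA and 6.43% GTTAAT, against 5, 4, 6 and 7 of the 29 members. The shares count promoter windows, while a member was counted if any of its windows held the letters, so they are not strictly alike. Members with another order of mice held them as well: F9 held TTCNNNGAA, CTGGGAA and TTGCNNAA, and Masp2 held TTCNNNGAA and CTGGGAA. In both of these knockout liver 2 was the highest of all mice, at 0.0708 in F9 and 0.133 in Masp2. A match is a description of letters and shows no binding in these livers.

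No member passed the test between the genotypes. By limma, with adjustment over all 16468 genes, 0 of 37 were called, against 0.00607% of all genes, and the smallest adjusted p of a member was 0.872. At an unadjusted p under 0.05 there were 4 members, 2 higher and 2 lower in the knockouts, where 4.79% of all genes were at that level, 2.02% higher and 2.76% lower. All 4 belonged to complement, and 0 of 19 coagulation members were at that level. The 3 knockout values lay entirely on one side of the 4 wild-type values in 5 of 37 members, all in complement, 3 of them higher and 2 lower, which compares with 5.38% of all genes, 2.77% higher and 2.61% lower. Members stood higher in the knockouts on average in 28 of 37 and lower in 9, as did 56.7% and 43.3% of all genes. Since the members were chosen with results of these data known, no test over the list was made.

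**Figure D1:**
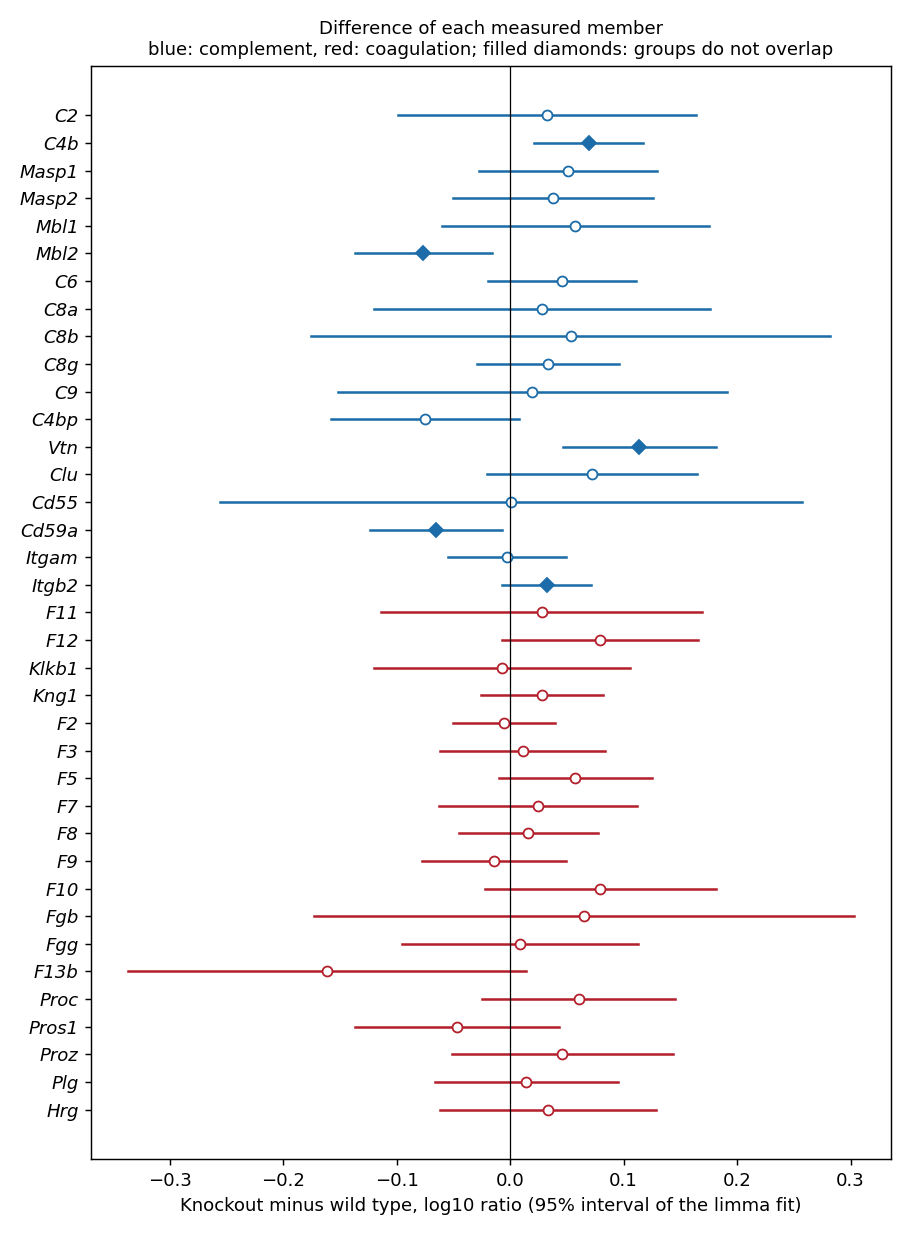
Knockout minus wild type on the log10 scale for each of the 37 measured members, in order of role, with 95% intervals of the limma fit. Filled diamonds mark the 5 members whose groups do not overlap, all of complement (blue), and none of the coagulation members (red) is marked.

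The size of the differences that the fit left room for varied by member. The 95% interval of a difference reached 1.22-fold to either side of the estimate at the median member, 1.09-fold for Itgb2, whose interval was the narrowest, and 1.81-fold for Cd55. These intervals are for single genes and are not adjusted for the number of genes tested.

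Among the proteins that start the classical and lectin pathways, C4b and Mbl2 stood apart between the genotypes in opposite directions. C4b encodes complement C4, whose larger fragment forms the classical C3 convertase with a fragment of C2. It read 0.0784, 0.0654 and 0.122 in knockout livers 2, 3 and 4 and -0.00310, 0.0143, 0.0361 and 0.0300 in wild-type livers 1 to 4. Every knockout lay above every wild type. The difference was 0.0692 ± 0.0206 (SE, n = 3 and 4), or 1.17-fold higher, and did not pass over all genes (limma, adjusted p = 0.872). C4b has a near-identical copy in the mouse, and whether the probe tells them apart is not known. Mbl2, a mannose-binding lectin that recognises microbial sugars, read -0.101, -0.0931 and -0.136 in the knockouts and 0.00150, -0.0679, 0.00110 and -0.0694 in the wild types. All 3 knockouts lay below all 4 wild types, by 1.19-fold on average (difference -0.0763 ± 0.0261, SE, limma, adjusted p = 0.872).

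The other lectin Mbl1 showed no such order. It read 0.0380, 0.0153 and 0.0758 in the knockouts and 0.0553, -0.146, 0.0612 and -0.0290 in the wild types, and its lowest value was that of wild-type liver 2. The lectin-associated protease genes also overlapped between the genotypes. Masp1 read 0.0587, 0.116 and 0.0627 in knockout livers 2 to 4 and -0.0395, 0.0169, 0.0356 and 0.0988 in wild-type livers 1 to 4. Masp2 read 0.133, 0.0758 and -0.0125 in the knockouts and -0.0289, 0.0366, 0.0350 and 0.0668 in the wild types, with knockout liver 2 the highest and knockout liver 4 below every mouse except wild-type liver 1. C2, the protease subunit of the classical convertase and a neighbour of C4b on chromosome 17, read -0.00220, -0.0155 and 0.106 in the knockouts and -0.150, 0.0264, 0.0563 and 0.0539 in the wild types. Wild-type liver 1 was far below the rest there, and without it the C2 difference turned from 0.0328 to -0.0162. In all, 5 of the 6 measured genes of this group stood higher in the knockouts on average (56.7% of all genes), with a median difference of 0.0446.

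C1s, the classical protease, is listed in the annotation only under its newer symbol C1s1, which was found after the members were matched and is not counted among them. It is encoded on chromosome 6, as is C3ar1. The mean of its 3 probes was -0.0240, -0.0242 and 0.0340 in the knockouts and -0.0230, 0.00150, 0.0371 and 0.0172 in the wild types, with overlap and a difference of -0.0129 ± 0.0233 (SE, limma, adjusted p = 0.913). Its probes disagreed in sign, at -0.0379, 0.0200 and -0.0209.

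Among complement regulators the pair that stood apart was Vtn and Cd59a, again in opposite directions. Vtn encodes vitronectin, a plasma and matrix protein that binds the forming attack complex and keeps it from inserting into membranes. It read 0.120, 0.0492 and 0.109 in knockout livers 2, 3 and 4 and -0.0625, -0.0289, 0.0362 and -0.0310 in wild-type livers 1 to 4. The groups did not overlap, and 0.114 was the largest positive difference of the 37 members, 1.30-fold, with a 95% interval of 0.0465 to 0.181 on the log10 scale, yet it did not pass (limma, adjusted p = 0.872). Cd59a, which encodes a membrane-anchored inhibitor of the last step of attack complex assembly, read -0.0951, -0.0497 and -0.0782 in the knockouts and 0.0467, -0.0267, -0.0299 and -0.0263 in the wild types. All knockouts were lower than all wild types, by 1.16-fold on average (difference -0.0653 ± 0.0249, SE, limma, adjusted p = 0.872). Wild-type liver 1 lay far above the other wild types in Cd59a, and without it the difference was -0.0467.

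The other regulators overlapped. C4bp, which encodes the alpha chain of the C4b-binding protein, read -0.137, -0.0588 and -0.0132 in the knockouts and 0.0607, 0.0148, -0.0138 and -0.0398 in the wild types (difference -0.0750 ± 0.0354, SE, limma, adjusted p = 0.872, and -0.0415 without knockout liver 2). Knockout livers 2 and 3 lay below every wild type, while liver 4 did not. Clu, which encodes clusterin, a chaperone that also binds the terminal complex, read 0.0104, 0.00760 and 0.129 in the knockouts and -0.0858, -0.0209, 0.0402 and -0.0266 in the wild types. Only knockout liver 4 exceeded all wild types in Clu. Cd55, the gene of decay-accelerating factor, which dissociates convertases, was the most variable member, with -0.279, -0.275 and 0.0946 in the knockouts and -0.0586, -0.248, -0.302 and -0.00590 in the wild types. Wild-type livers 2 and 3 and knockout livers 2 and 3 were low together, and the other mice of both genotypes were high, so the ranges overlapped throughout (difference 0.000550 ± 0.110, SE, limma, adjusted p = 0.999).

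The integrin chains of complement receptor 3, CD11b (Itgam) and CD18 (Itgb2), are carried by macrophages, neutrophils and natural killer cells rather than by hepatocytes. Itgb2 read 0.0327, 0.00260 and 0.0363 in the knockouts and -0.0136, -0.00960, -0.0118 and 0.00140 in the wild types, with no overlap. The step between the highest wild type and the lowest knockout was small, and the difference of 0.0323 ± 0.0168 (SE, limma, adjusted p = 0.872) did not pass. The mean of the Itgam probes was -0.0246, 0.0152 and 0.0143 in the knockouts and 0.0409, 0.0151, -0.0235 and -0.0153 in the wild types, with overlap, and the knockout minus wild-type differences of the single probes were -0.0102 and 0.00484. Beside these values, 10 of 10 measured macrophage and Kupffer cell markers stood higher in the knockouts on average, with 0 called and 1 (Marco, which overlapped) at an unadjusted p under 0.05, and the average over these markers was -0.133, -0.172 and 0.108 in knockout livers 2, 3 and 4 and -0.112, -0.111, -0.236 and -0.0792 in wild-type livers 1 to 4. That mean was highest in knockout liver 4, while knockout livers 2 and 3 were within the range of the wild types. Among neutrophil markers 6 of 9 stood higher, 0 at an unadjusted p under 0.05 and 1 without overlap, with list means of -0.0356, -0.0488 and 0.0453 in the knockouts and -0.0281, 0.00312, -0.0325 and -0.0240 in the wild types. Of all genes 56.7% stood higher, 4.79% were at an unadjusted p under 0.05 and 5.38% were without overlap. The part of either cell type in the Itgb2 values was not tested.

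**Figure D2:**
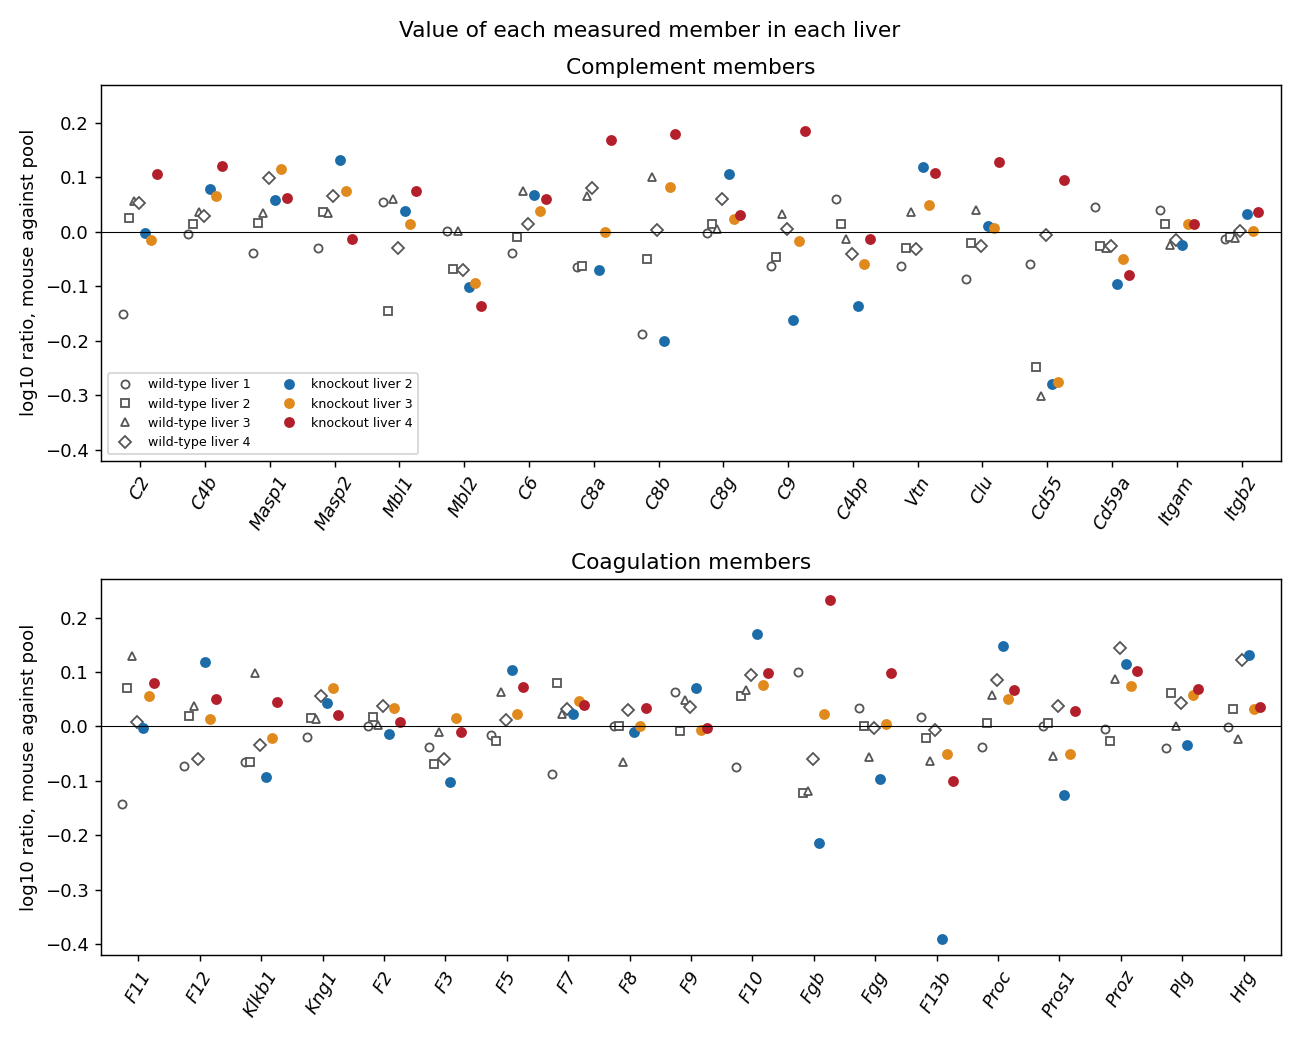
Log10 ratio against the pool for each measured member in each liver, complement above and coagulation below, with open symbols for the 4 wild types and filled circles for the 3 knockouts. Knockout livers 2 and 4 lie at opposite ends for C8a, C8b, C9, Fgb and Fgg, and knockout liver 2 is lowest of all for F13b.

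Among the terminal components, which build the membrane pore, C9, C8b and C8a were marked by distance between mice of one genotype. C9, the subunit that polymerises into the ring, read -0.162, -0.0171 and 0.186 in knockout livers 2, 3 and 4 and -0.0619, -0.0460, 0.0333 and 0.00450 in wild-type livers 1 to 4. Knockout liver 2 was the lowest and knockout liver 4 the highest of all 7 mice, with the wild types between them. C8b, which encodes the beta chain of C8, read -0.201, 0.0824 and 0.180 in the knockouts and -0.187, -0.0490, 0.101 and 0.00340 in the wild types. C8a, the alpha chain gene, read -0.0704, -0.000200 and 0.170 in the knockouts and -0.0652, -0.0622, 0.0663 and 0.0803 in the wild types. In both genes knockout livers 2 and 4 again took the ends, though wild-type liver 1 lay close to knockout liver 2. Their differences were 0.0196 ± 0.0735 for C9, 0.0535 ± 0.0981 for C8b and 0.0282 ± 0.0635 for C8a (SE), all smaller than the spread between mice (limma, adjusted p = 0.961, 0.914 and 0.928).

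The rest of the terminal group was more even. C8g, which encodes the gamma chain of C8, a lipocalin, read 0.106, 0.0244 and 0.0309 in the knockouts and -0.00150, 0.0154, 0.00560 and 0.0612 in the wild types. There knockout liver 2 was the highest, opposite to its place in C8a and C8b. C6, which joins C5b to begin the assembly, read 0.0685, 0.0383 and 0.0614 in the knockouts and -0.0381, -0.00990, 0.0746 and 0.0147 in the wild types, and the groups overlapped because wild-type liver 3 exceeded every knockout. All 5 measured terminal genes stood higher in the knockouts on average (56.7% of all genes), with differences from 0.0196 to 0.0535. Without knockout liver 4 the differences turned to -0.0722 for C9, -0.0264 for C8b and -0.0401 for C8a.

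Fibrinogen showed the same order of the knockouts. Fgb, the gene of its beta chain, read -0.213, 0.0237 and 0.233 in knockout livers 2, 3 and 4 and 0.0992, -0.123, -0.119 and -0.0606 in wild-type livers 1 to 4. Fgg, the gamma chain gene, which lies near Fgb on chromosome 3, read -0.0962, 0.00470 and 0.0978 in the knockouts and 0.0334, 0, -0.0569 and -0.00260 in the wild types. In both genes knockout liver 2 was the lowest of the 7 mice, knockout liver 4 the highest and wild-type liver 1 the second highest. The mean differences were 0.0651 ± 0.102 for Fgb and 0.00863 ± 0.0447 for Fgg (SE, limma, adjusted p = 0.901 and 0.968), and without knockout liver 4 they turned to -0.0442 and -0.0392. The 5 members C8a, C8b, C9, Fgb and Fgg had knockout liver 2 lowest and knockout liver 4 highest of all mice, as did 3.47% of all genes. This pattern was picked out after its values were seen.

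Beside these 5 genes, the average over 17 measured acute phase genes, none of them a member, gave -0.0705, 0.00486 and 0.210 in knockout livers 2, 3 and 4 and 0.107, -0.0278, -0.125 and -0.0301 in wild-type livers 1 to 4. It was highest in knockout liver 4 and second highest in wild-type liver 1, as fibrinogen was, and lowest in wild-type liver 3. Single genes of the list differed from this mean. Saa2, Saa1 and Saa3 weighed most in it, with SDs over the 7 mice of 0.455, 0.439 and 0.434, against 0.0965 at the median gene of the list. In Hamp, Mt1 and Mt2 knockout liver 4 was instead the lowest of the knockouts, at -0.0772, -0.0527 and -0.408. In 4 of the 17, Saa1, Saa2, Saa3 and Itih3, knockout liver 2 was the lowest and knockout liver 4 the highest of all mice (3.47% of all genes). In the 3 serum amyloid A genes among these, wild-type liver 1 was also second highest, the order of fibrinogen (1.24% of all genes). Saa2 read -0.384, -0.174 and 0.901 in the knockouts and 0.337, -0.191, -0.276 and -0.161 in the wild types. Whether its probe tells the closely related serum amyloid A genes apart is not known, so the 3 may not be separate readings. Saa1, Saa2, Saa3 and Itih3 were named after their values were seen. Of these 17 genes 15 stood higher in the knockouts on average, where 56.7% of all genes did. Of the 17, 0 were called, against 0.00607% of all genes. Hpx, the gene of the heme-binding hemopexin, read -0.0461, -0.00210 and 0.189 in the knockouts and -0.0512, -0.0832, -0.0883 and -0.0596 in the wild types, without overlap. It was the 1 gene of the 17 without overlap, where 5.38% of all genes were. Orm2, a gene of the plasma protein orosomucoid, read -0.0122, 0.0213 and 0.213 in the knockouts and -0.0146, 0.0224, -0.0610 and -0.0223 in the wild types, with overlap, and knockout liver 4 was the highest of all mice in both. The part of an acute phase response in the fibrinogen and terminal complement values was not tested.

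Partner genes whose proteins form 1 complex were compared across the 7 mice, in 7 measured pairs. Fgb and Fgg varied together, with Pearson's r = 0.936 (two-sided exact permutation p = 0.00258, adjusted 0.0181 over 7 pairs) and Spearman's rho = 0.893 (exact permutation p = 0.0123, adjusted 0.0431). Leaving out knockout liver 4 and wild-type liver 1, which lay farthest from the median of Fgb, r was 0.814 over 5 mice. No p is given there, since 5 mice allow no exact p below 0.00833, or 0.0583 for a single pair after adjustment over 7. Without knockout liver 4 alone it was 0.866 (exact permutation, adjusted p = 0.0681). C8a and C8b, neighbours on chromosome 4, had r = 0.850 (exact permutation p = 0.0185, adjusted 0.0646) and rho = 0.893 (exact permutation p = 0.0123, adjusted 0.0431). Without wild-type liver 4 and knockout liver 4 that r was 0.868 over 5 mice.

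C8g gave r = -0.0906 against C8a and -0.337 against C8b (exact permutation, adjusted p = 0.970 and 0.737). Both of these turned positive without knockout liver 2, to 0.529 and 0.340. Itgam with Itgb2, Masp1 with Mbl1 and Masp2 with Mbl2 gave r of -0.263, -0.00437 and -0.327, none of which passed (exact permutation, adjusted p = 0.737, 0.993 and 0.737). All points share the pool and the normalization of their array, and the groups are too small for a correlation within one genotype.

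**Figure D3:**
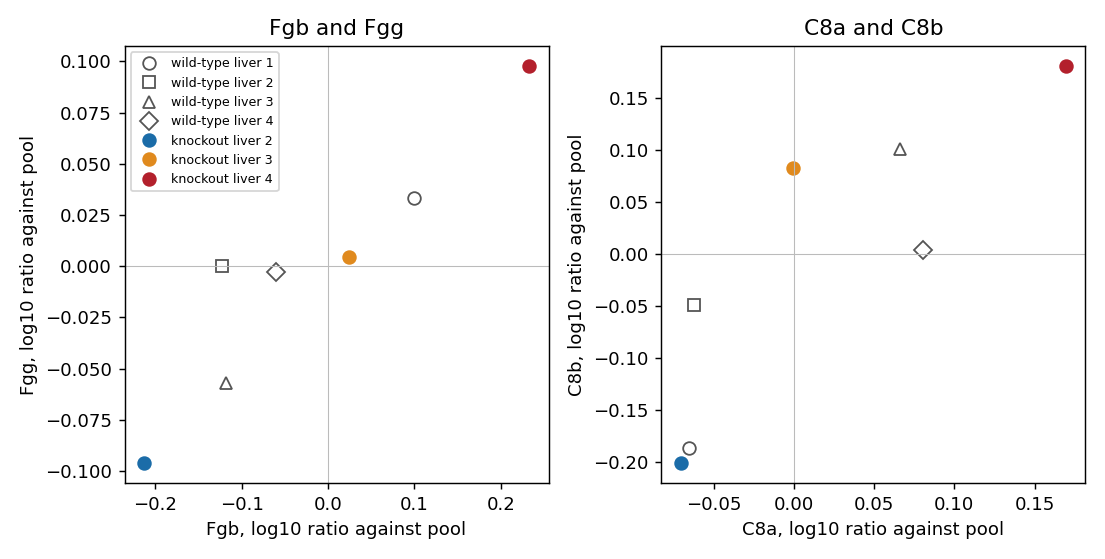
Log10 ratios of Fgb against Fgg (left) and of C8a against C8b (right), 1 point per liver, open for the 4 wild types and filled for the 3 knockouts. Knockout livers 2 and 4 sit at the lower left and upper right ends of both panels, where r was 0.936 and 0.850.

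F13b, which encodes the carrier subunit of factor XIII, the enzyme that cross-links fibrin, had another order of mice than fibrinogen. It read -0.390, -0.0497 and -0.101 in the knockouts and 0.0165, -0.0213, -0.0628 and -0.00640 in the wild types. Knockout liver 2 lay far below all other mice, and knockout liver 3 lay within the range of the wild types. The difference of -0.161 ± 0.0753 (SE, limma, adjusted p = 0.872) was the largest of the 37 in size, and without knockout liver 2 it was -0.0566.

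The contact system genes all overlapped. F12, the gene of Hageman factor, which starts the contact route, read 0.118, 0.0140 and 0.0496 in the knockouts and -0.0732, 0.0188, 0.0384 and -0.0589 in the wild types, with a difference of 0.0793 ± 0.0370 (SE, limma, adjusted p = 0.872), which was 0.0505 without knockout liver 2. Kng1, the gene of kininogen, from which bradykinin is released, read 0.0435, 0.0707 and 0.0205 in the knockouts and -0.0186, 0.0153, 0.0138 and 0.0556 in the wild types. F11, the next protease of that route, read -0.00260, 0.0553 and 0.0805 in the knockouts and -0.142, 0.0710, 0.130 and 0.00790 in the wild types, where wild-type liver 1 was low as in C2. Klkb1, the gene of plasma prekallikrein and a neighbour of F11 on chromosome 8, read -0.0927, -0.0208 and 0.0445 in the knockouts and -0.0648, -0.0647, 0.0978 and -0.0334 in the wild types, with knockout liver 2 lowest and wild-type liver 3 highest.

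In the route from tissue factor to thrombin, 5 of 7 measured genes stood higher in the knockouts on average (56.7% of all genes). Differences lay between -0.0141 and 0.0793, and 0 were at an unadjusted p under 0.05. F10, the protease of the prothrombinase complex, read 0.170, 0.0766 and 0.0981 in the knockouts and -0.0752, 0.0568, 0.0661 and 0.0941 in the wild types. Knockout livers 2 and 4 were above all wild types, knockout liver 3 was not, and the difference was 0.0793 ± 0.0437 (SE, limma, adjusted p = 0.872), which was 0.0424 without wild-type liver 1. F5, its cofactor, read 0.103, 0.0226 and 0.0725 in the knockouts and -0.0153, -0.0260, 0.0628 and 0.0128 in the wild types (difference 0.0575 ± 0.0290, SE, limma, adjusted p = 0.872). F7, the partner of tissue factor, lies beside F10 and Proz on chromosome 8 and read 0.0232, 0.0477 and 0.0403 in the knockouts and -0.0871, 0.0797, 0.0233 and 0.0330 in the wild types. Wild-type liver 1 was lowest in both F7 and F10.

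The most even coagulation member was F2, the gene of prothrombin, at -0.0145, 0.0343 and 0.00800 in the knockouts and 0.000200, 0.0180, 0.00310 and 0.0371 in the wild types. Its SD over the 7 mice was 0.0187, against 0.0367 at the median of all genes and 0.0586 at the median member. F9, the protease that joins factor VIII, differed by -0.0141 ± 0.0271 and F8, its cofactor, which is made mainly by endothelial cells, by 0.0162 ± 0.0262 (SE), and without knockout liver 3 the F9 difference was -0.000750. Beside F8, 9 of 10 endothelial markers stood higher in the knockouts on average (56.7% of all genes), 0 of them called. Of these, 2 (Stab1 and Egfl7) were at an unadjusted p under 0.05 (4.79% of all genes) and without overlap (5.38% of all genes), by 0.102 ± 0.0306 and 0.0698 ± 0.0211 (SE). The list mean was 0.0142, -0.00908 and 0.0460 in the knockouts and -0.0304, -0.0363, -0.0347 and 0.0143 in the wild types. The part of endothelial cells in the F8 values was not tested. F3, the gene of tissue factor, differed by 0.0112 ± 0.0312 (SE). F9, F8 and F3 each overlapped between the genotypes (limma, adjusted p = 0.918, 0.905 and 0.943).

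The anticoagulant and fibrinolytic genes gave no separation. Proc, the gene of protein C, which inactivates factors V and VIII, read 0.148, 0.05 and 0.0661 in the knockouts and -0.0382, 0.00590, 0.0576 and 0.0847 in the wild types. Pros1, the gene of its cofactor protein S, read -0.126, -0.0504 and 0.0284 in the knockouts and 0.001, 0.00710, -0.0546 and 0.0367 in the wild types. The differences were 0.0605 ± 0.0366 for Proc and -0.0469 ± 0.0384 for Pros1 (SE, limma, adjusted p = 0.872 and 0.872), and without knockout liver 2 they were 0.0306 and -0.00855. Proz, the gene of protein Z, a cofactor in the inhibition of factor Xa, read 0.114, 0.0739 and 0.101 in the knockouts and -0.00390, -0.0258, 0.0863 and 0.145 in the wild types. Plg, the precursor gene of plasmin, read -0.0338, 0.0572 and 0.0690 in the knockouts and -0.0403, 0.0620, 0.000400 and 0.0433 in the wild types. Hrg, the gene of histidine-rich glycoprotein, which binds plasminogen, read 0.132, 0.0319 and 0.0349 in the knockouts and -0.000200, 0.0328, -0.0233 and 0.122 in the wild types. Wild-type liver 4 was near the top in Proz and Hrg, and the ranges of the genotypes overlapped in all 5 genes.

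The 2 arms were set side by side as means within each mouse. The mean over the 18 complement members was -0.0237, -0.000947 and 0.0631 in knockout livers 2, 3 and 4 and -0.0328, -0.0320, 0.0112 and 0.00954 in wild-type livers 1 to 4. Over the 19 coagulation members it was -0.00838, 0.0238 and 0.0507 in the knockouts and -0.0201, 0.00165, 0.0125 and 0.0271 in the wild types. Knockout liver 4 was highest in both. Complement minus coagulation within each mouse was -0.0153, -0.0247 and 0.0124 in the knockouts and -0.0127, -0.0336, -0.00125 and -0.0176 in the wild types, so knockout liver 4 was the single mouse with a positive value. The difference of the group means was 0.00710, below the SD over mice of 0.0193 and 0.0134, and turned to -0.00371 without knockout liver 4.

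By member, the median difference was 0.0332 in complement and 0.0248 in coagulation, against 0.00543 over all genes. In each arm 14 members stood higher in the knockouts, and 4 and 5 stood lower, where 56.7% of all genes stood higher and 43.3% lower. Without knockout liver 4 the medians were 0.0103 and 0.00345. The complement median was 0.0544 when knockout liver 2 was left out and 0.0505 when wild-type liver 4 was. Complement held 5 members without overlap, 3 higher (C4b, Vtn and Itgb2) and 2 lower (Mbl2 and Cd59a), and coagulation 0, where 5.38% of all genes were without overlap. This contrast between the arms was not tested.

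Single mice sat at the edge of many members. Wild-type liver 1 was the lowest of the 7 mice in 16 of 37 members, where it was lowest in 17.0% of all genes. Knockout liver 4 was the highest in 13 of 37, against 14.4% of all genes. Knockout liver 2 was the lowest in 13 and the highest in 9, against 18.5% and 29.4% of all genes. Knockout liver 3 was at the edge in 3 of 37 members, against 12.3% of all genes.

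**Figure D4:**
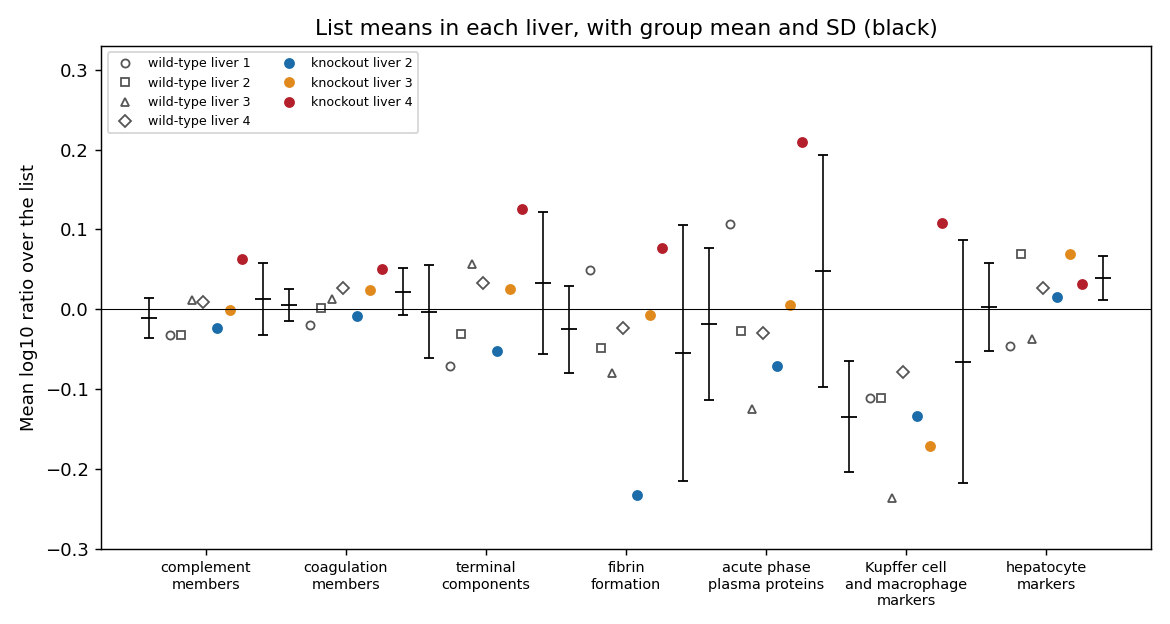
Mean log10 ratio over each list in each liver, with the group mean and SD in black. Knockout liver 4 is the highest mouse in both arms, in terminal complement, in fibrin formation, in acute phase genes and in macrophage markers, but not in hepatocyte markers.

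Genes of the same systems that are not members gave no call either. Over all genes 56.7% stood higher in the knockouts on average and 43.3% lower. Of 18 other complement genes measured, 12 stood higher and 6 lower, with 0 called and 0 at an unadjusted p under 0.05. C1qa, a chain of C1q, the recognition unit of the classical pathway, read 0.0854, -0.0965 and 0.0973 in the knockouts and -0.102, -0.0207, -0.142 and -0.0518 in the wild types. Serping1, the gene of the C1 inhibitor, read 0.0168, -0.0116 and 0.118 in the knockouts and -0.00790, -0.0426, -0.00820 and 0.0114 in the wild types. Of 22 other coagulation genes, 16 stood higher and 6 lower, with 0 called and 1 at an unadjusted p under 0.05 (4.79% of all genes). That gene was Vwf, the gene of von Willebrand factor, a product of endothelial cells, at 0.0928, 0.0398 and 0.0562 in the knockouts and -0.0455, 0.0124, -0.00100 and -0.0122 in the wild types without overlap (difference 0.0745 ± 0.0218, SE, limma, adjusted p = 0.872), and it lies on chromosome 6 with C3ar1. Among liver transcription factors 5 of 12 measured stood higher and 7 lower, with 0 called and 2 at an unadjusted p under 0.05 (4.79% of all genes), both with overlap. These were Foxa3, higher by 0.109 ± 0.0407, and Nr2f2, with a difference of -0.123 ± 0.0491 (SE, limma, adjusted p = 0.872 and 0.872). Hnf4a, a main activator of clotting factor genes, differed by 0.0283 ± 0.0192 (SE, limma, adjusted p = 0.872). Of the listed STAT and C/EBP factors, Stat3 was highest of all mice in knockout liver 4, at 0.0718. Cebpb and Cebpd were lowest of all mice there, at -0.137 and -0.420, and read 0.204 and 0.161 in knockout liver 2. Cebpa read -0.0551 in knockout liver 4, within the range of the wild types. The part of these factors in the member values was not tested.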

How the data were processed

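The authors deposited a log ratio for each of 23574 probes on 7 arrays, read here as log10, in a table with 0 unused value columns. The sources used here give no background correction, normalization, scanner or log base. The column medians lay between -0.0008 and 0.0139, and whether the authors centred the arrays is unknown, as are base and direction. The design text says that a dye swap was part of the profiling, without naming the arrays. The lowest correlation between 2 arrays was -0.250, and no pair shared over 0.119% of values. Probes were named by the platform's annotation: 17824 had 1 symbol, 50 several and 5700 no listed gene. Probes of a symbol were averaged. The number of arrays limits the precision.

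limma 3.58.1 in R 4.3.3 (lmFit, eBayes, two-sided, Benjamini-Hochberg over 16468 genes, threshold 0.05) compared knockout with wild type, and the pool cancels. Errors are SD over mice or SE of the fit. Members and lists were chosen with earlier results of these data known. Values in every mouse are given for members without overlap, for the 2 of smallest p in each role, for those in pairs and for those with an outlying mouse. Other lists gave up to 4 genes of smallest p and C3ar1. The values of C4bp, Clu, Cd55, C9, F11, Klkb1, F7, F2, Proz, C1s1, A2ml1, Saa1, Saa2, Saa3, Itih3, Hamp, Mt1, Mt2, Stat3, Cebpa, Cebpb and Cebpd were chosen after seeing the data. On simulated data of 16468 genes with independent noise, 50 genes were changed at each size, by 0.1, 0.2, 0.4 and 0.8. Of these, 8%, 86%, 98% and 100% were recovered, with 8 false calls. All sizes were planted together, which eases the adjusted threshold. In the real data 1 gene passed, so these shares cannot be taken as those of the real comparison. The labels number the livers within each genotype, and each number was taken as a separate animal. Alternatives were 3 normalizations, a filter, single probes, array weights, robust and ordinary tests, a block and each mouse left out.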

Additional observations from a re-analysis of the deposited data

Results flagged for a closer look

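In 2 of 37 members, 1 wild-type mouse lay far from the other 3, past Dixon's 95% limit for the gap as a share of the group's range. Chance flags about 1 in 20 groups. Both were wild-type liver 1, which read -0.150 in C2, below the other wild types, and 0.0467 in Cd59a, above them. The 3 knockouts are too few for this test. What sets wild-type liver 1 apart in these genes was not tested.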

How the results depend on the processing

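Under the 16 alternatives, 0 members were called in any, and the lowest adjusted p of a member was 0.568. The number at an unadjusted p under 0.05 was 4 as reported and 1 to 5 under the other settings with all mice, and 2 to 7 with 1 mouse left out. Leaving out the less variable genes kept 31 of 37 members. Knockout and wild-type mice share the numbers 2 to 4, but the deviations of same-numbered mice from their group means correlated at -0.135, -0.209 and -0.129, so the numbers were not taken as pairs. Under the replicate block 0 members were called and the number at an unadjusted p under 0.05 was 1. The median difference was 0.0181 to 0.0448 for complement and 0.0167 to 0.0295 for coagulation with all mice, and 0.0103 to 0.0544 and 0.00345 to 0.0318 with 1 left out. Each median moved from its reported value by less than the SD over mice of the list mean, averaged over the genotypes. Those SDs, 0.0349 and 0.0247, were about as large as the reported medians, 0.0332 and 0.0248. Staying within them therefore does not show a stable median. The difference of complement minus coagulation was -0.00371 to 0.0148 with 1 mouse left out. Of 37 members 22 kept their sign under each setting that held them, C4b, Vtn, Itgb2, Mbl2 and Cd59a among them, and 15 turned under some setting. The groups do not overlap in those 5 named members, so leaving out, weighting or blocking mice could not turn their sign. Cd55 turned to -0.00412 under median centring, and Klkb1 to 0.0122 and 0.0114 under quantile and scale normalization. Array weights turned Cd55 to -0.0746, Itgam to 0.00753 and F2 to 0.0112. The replicate block turned C2 to -0.0162, Itgam to 0.00952, F11 to -0.0252, F7 to -0.00827 and Plg to -0.00443. Wild-type liver 1 has no knockout of its number, so the block gives it no weight. Its differences are therefore those without wild-type liver 1, and these turns are not separate from that setting. With 1 mouse left out the differences that turned ranged as follows: Itgam -0.0120 to 0.0104, Klkb1 -0.0405 to 0.0313, F2 -0.0179 to 0.00655, F3 -0.0127 to 0.0461, C2 -0.0162 to 0.0552, C8a -0.0401 to 0.0800, C8b -0.0264 to 0.164, C9 -0.0722 to 0.102, Cd55 -0.123 to 0.0635, Fgb -0.0442 to 0.179, Fgg -0.0392 to 0.0578, Plg -0.00465 to 0.0468, F11 -0.0252 to 0.0655, F7 -0.00827 to 0.0473 and F8 -0.00303 to 0.0291. Of the 22 that kept their sign, 16 moved over 1.5 times when some mouse was left out and 6 did not: C4b, Mbl2, Vtn, Cd59a, Itgb2 and F5. The 16 ranged as follows: Masp1 0.0287 to 0.0748, Masp2 0.00428 to 0.0769, Mbl1 0.0139 to 0.0829, C6 0.0296 to 0.0672, C8g 0.00748 to 0.0482, C4bp -0.103 to -0.0415, Clu 0.0323 to 0.0933, F12 0.0505 to 0.103, Kng1 0.0155 to 0.0414, F9 -0.0391 to -0.000750, F10 0.0424 to 0.0989, F13b -0.227 to -0.0566, Proc 0.0306 to 0.0795, Pros1 -0.0857 to -0.00855, Proz 0.0206 to 0.0775 and Hrg 0.000500 to 0.0631. Among pairs, Masp1 with Mbl1 and Masp2 with Mbl2 turned to 0.340 and 0.335 without the 2 mice farthest from the median of the first gene. Leaving out 1 mouse, an alternative chosen after seeing the data, gave r of 0.866 to 0.985 for Fgb with Fgg and 0.769 to 0.913 for C8a with C8b, the latter called without knockout liver 3 alone (exact permutation, adjusted p = 0.0389). It turned the sign in other pairs, which ranged as follows: C8a with C8g -0.310 to 0.529, C8b with C8g -0.739 to 0.340, Itgam with Itgb2 -0.533 to 0.0329, Masp1 with Mbl1 -0.585 to 0.303 and Masp2 with Mbl2 -0.835 to 0.0174. Beyond the settings' own construction, the cause was not tested. Signal over background is unknown, so which members were read well above it cannot be told.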
